A study of Mus musculus with 9 samples.

Results

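Hox genes of the HoxA and HoxB clusters were followed in LSK cells. These are bone marrow cells that lack lineage antigens and carry Sca1 and cKit, a population made up of blood stem cells and early progenitors of mice. The set was a list of 10 gene symbols, Hoxa3, Hoxa5, Hoxa7, Hoxa9, Hoxa10, Hoxb2, Hoxb3, Hoxb4, Hoxb5 and Hoxb6, looked up in a table of 14940 genes. Of these, 7 had a row, and all 7 reached a deposited value of at least 10 in 3 or more of the 9 libraries, as did 13018 genes in all. Hoxa3, Hoxa5 and Hoxb5 had no row and were not analysed here. The cells came from C57BL/6 mice, 3 in each of 3 groups. One group was naive. The second was sampled 3 days after it had been immunized to induce EAE (experimental autoimmune encephalomyelitis), a model of multiple sclerosis, with complete Freund's adjuvant and residues 35 to 55 of myelin oligodendrocyte glycoprotein. The third was immunized in the same way and given SR59230A, an antagonist of the β3-adrenergic receptor, for the same 3 days. The labels give no age or sex, name no vehicle for the untreated EAE mice and describe no mice given adjuvant alone, so the adjuvant and the peptide cannot be told apart, nor the antagonist and the act of giving it.

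Hox genes encode homeodomain transcription factors that lie in clusters, in which the order of the genes along the chromosome follows the order in which they act along the body axis. In blood, genes of the HoxA and HoxB clusters are active in stem cells and early progenitors and are shut off as cells mature. Their proteins bind DNA with partners of the TALE homeodomain class (PBX and MEIS proteins), and the clusters are kept open by MLL and trithorax proteins and closed by Polycomb proteins. HOXA9 with MEIS1 is best known for driving acute myeloid leukemia when it stays switched on.

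The deposited whole numbers are values adjusted by the authors and not read counts, which leaves the depth of each library unknown and allows no interval for counting error. Their sums ran from 8641735 to 10387955 per library. Each value below is a scaled value, the deposited value divided by a library factor (0.907 to 1.11), and mice are given in the order 1, 2 and 3 of their group. A higher scaled value of one gene than of another says nothing of the 2 genes' levels, since the values are not per length. Differences are log2 fold changes on log2(scaled value + 1) from limma-trend with their standard error (SE), and a gene rose or fell where the Benjamini-Hochberg adjusted p over all tested genes was under 0.05. RNA of the gate antigens was present: Kit lay between 4814 and 7187 and Ly6a, which encodes Sca1, between 1403 and 2522. The lineage gene Ly6g, a neutrophil antigen, stayed under 100 in every library. Itgam, another lineage gene, which encodes CD11b, lay between 556 and 784 in naive and between 1062 and 1565 in immunized mice. The summed scaled value of 13 mature neutrophil markers was 3202.5 to 7380 in naive, 4084 to 17358 in EAE and 8218 to 17624 in treated EAE mice. RNA of neutrophil marker genes was thus present in all groups. Which cells it came from and the purity of the sort were not tested.

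Hoxa9 was the listed gene that differed between groups. It was lower after immunization, and it was lower than in naive mice also where SR59230A had been given. Its scaled value was 2368, 2400.5 and 2471 in the naive mice. In the EAE mice it was 1799, 1703 and 1607. In the treated EAE mice it was 1719.7, 1985 and 1945. Every naive mouse lay above every immunized mouse, with or without SR59230A, whereas the EAE and treated groups overlapped. Means were 2413 ± 52.6 (SD, n = 3) in naive, 1703 ± 96.2 (SD, n = 3) in EAE and 1883 ± 143 (SD, n = 3) in treated EAE mice. Hoxa9 fell by 0.51 (SE 0.09) on the log2 scale in EAE against naive mice, which is 1.42-fold (limma, adjusted p = 0.00495, 95% interval of the log2 change -0.71 to -0.30). The call was kept under all 18 alternative settings, among them leaving out each library, with adjusted p from 0.000653 to 0.0493. With SR59230A, Hoxa9 fell by 0.36 (SE 0.09), or 1.28-fold, against naive mice (limma, adjusted p = 0.0241). That call was kept under 11 of 18 settings (limma, adjusted p from 0.00398 to 0.116). It was lost without any one naive mouse (adjusted p between 0.0632 and 0.0955), without any one treated mouse (between 0.0596 and 0.116) and in limma without a trend (0.0923). Between treated and untreated EAE mice the difference was 0.15 (SE 0.09), with an interval from -0.06 to 0.35 (limma, adjusted p = 0.998). In bulk RNA, fewer cells that express a gene and less of its RNA per cell cannot be told apart.

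Hoxa7, the neighbour of Hoxa9 in the cluster and a homeodomain factor of an adjoining group, had similar values in the 3 groups. Naive mice had 1237, 1118 and 1328, EAE mice 1263, 1291 and 1163, and treated EAE mice 1157, 1289.7 and 1349. All groups overlapped. The log2 difference was 0.01 (SE 0.10) in EAE against naive mice, with an interval from -0.21 to 0.24 (limma, adjusted p = 0.942). It was 0.03 in treated against untreated EAE and 0.04 in treated EAE against naive mice (limma, adjusted p = 0.998 and 0.812). The interval in EAE against naive mice holds neither the fall of Hoxa9 nor a rise of that size. The sign of the Hoxa7 difference turned in all 3 comparisons without library scaling, and in both comparisons with naive mice under upper-quartile scaling.

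**Figure D1:**
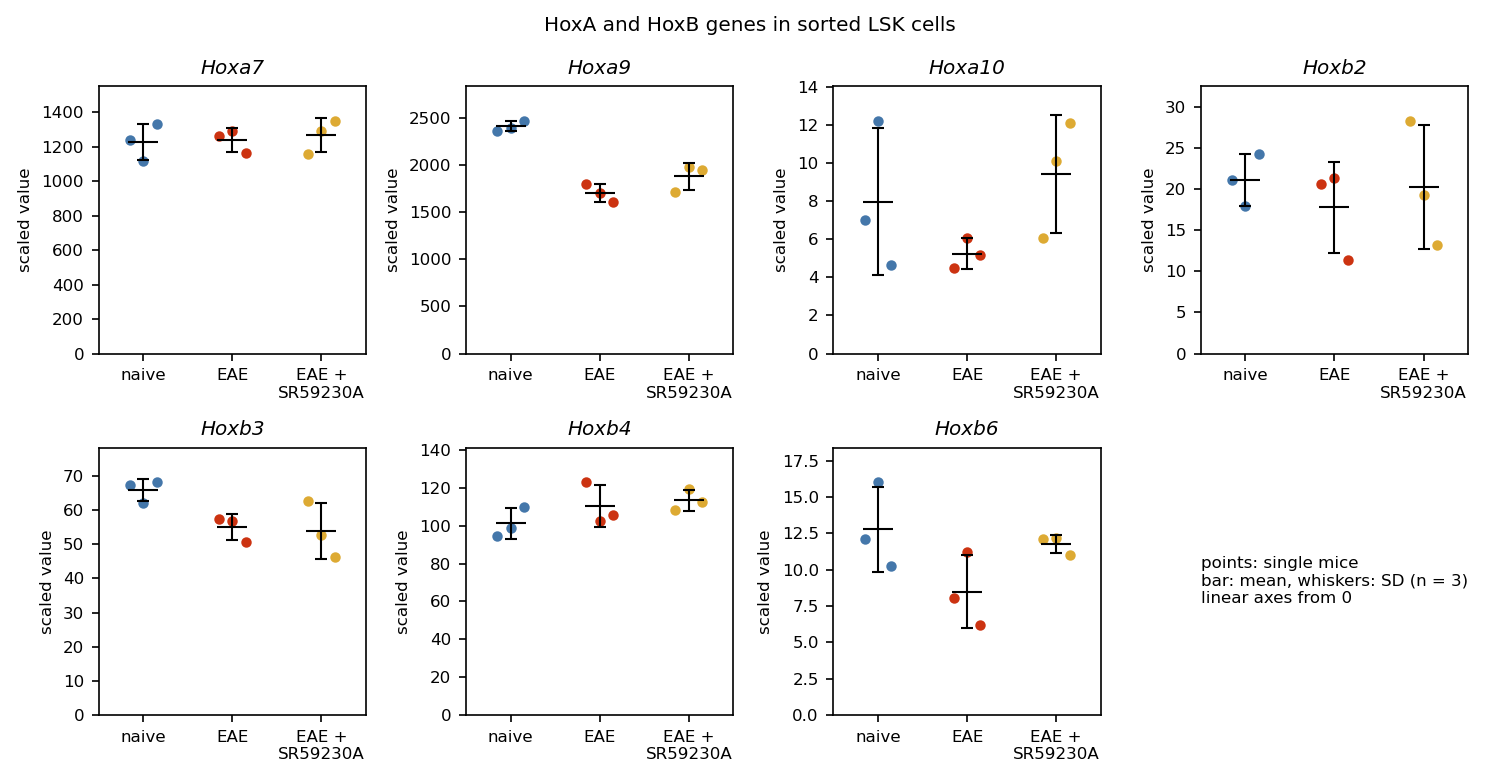
Scaled value (vertical axes, linear from 0, one scale per panel) of the 7 listed genes with a row, by group, with a point per mouse, a bar at the mean and whiskers of 1 SD (n = 3). Hoxa9 lies between 2368 and 2471 in naive mice and between 1607 and 1985 in the immunized groups, while the groups overlap for Hoxa7, Hoxa10, Hoxb2, Hoxb4 and Hoxb6.

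Because Hoxa9 and Hoxa7 sit side by side, their ratio within a library was also taken, which no library scaling can change. Hoxa9 to Hoxa7 was 1.91, 2.15 and 1.86 in naive mice, 1.42, 1.32 and 1.38 in EAE mice and 1.49, 1.54 and 1.44 in treated EAE mice. The naive mice stood apart from all others. A ratio within a library shows that the 2 genes changed unequally, not which of them stayed level, and these ratios were chosen after the values had been seen.

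Hoxa6, the gene on the other side of Hoxa7 and not on the list, was also lower in EAE than in naive mice. Its RefSeq span overlaps those of Hoxa3 and of the noncoding gene Hoxaas3, neither of which has a row, and the strand setting is not known, so its values are uncertain to that extent. Its scaled value was 350.4, 413 and 333 in naive mice, 257, 229.7 and 266 in EAE mice and 285, 293 and 271 in treated EAE mice. No group overlapped another, with naive highest, treated EAE next and EAE lowest. Hoxa6 fell by 0.54 (SE 0.13) in EAE against naive mice (limma, adjusted p = 0.0162), a call kept under 14 of 18 settings (adjusted p from 0.00271 to 0.0735). It was lost without the naive mouse 1 (0.066), the naive mouse 2 (0.0617) or the EAE mouse 2 (0.0735), and in limma without a trend (0.0624). The treated EAE mice differed from naive mice by -0.36 (SE 0.13), which did not pass (limma, adjusted p = 0.0753, called under 2 of 18 settings). In treated against untreated EAE mice it was 0.18 (SE 0.13, limma, adjusted p = 0.998), although the 3 treated mice all lay above the 3 untreated ones, as 8.46% of all tested genes did. Hoxa6 to Hoxa7 was 0.251 to 0.370 in naive, 0.178 to 0.229 in EAE and 0.201 to 0.246 in treated EAE mice. Hoxa9 to Hoxa6 had overlapping ranges, 5.81 to 7.42, 6.04 to 7.41 and 6.04 to 7.17. Across the 9 libraries the log2 values of Hoxa9 and Hoxa6 had a Pearson r of 0.86, those of Hoxa9 and Hoxa7 one of 0.10 and those of Hoxa7 and Hoxa6 one of -0.40, as a description of libraries that share groups and scaling.

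**Figure D2:**
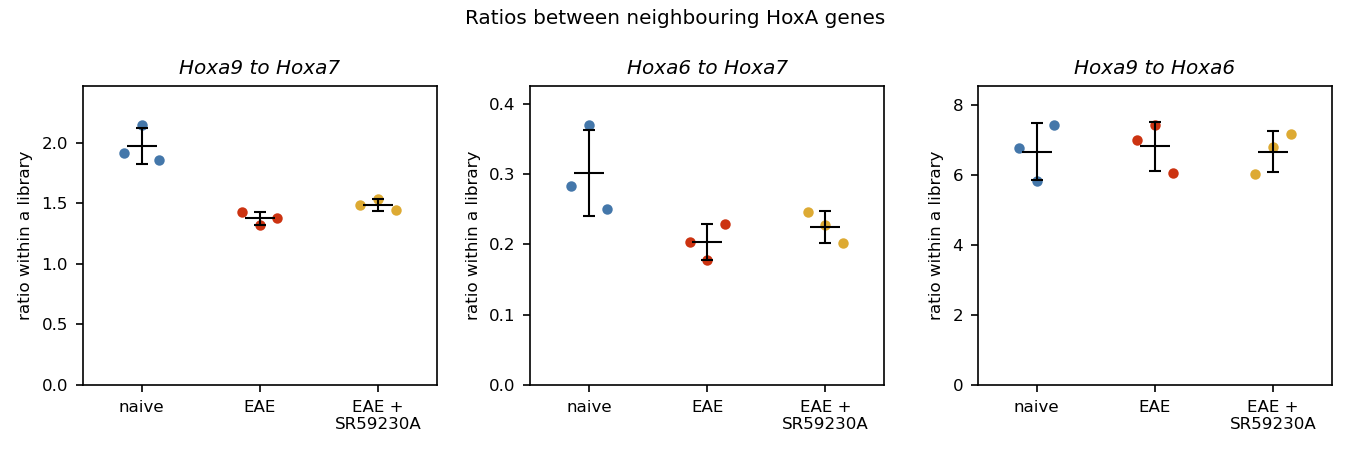
Ratio of 2 HoxA genes within a library (vertical axes, linear from 0), by group, with a point per mouse, a bar at the mean and whiskers of 1 SD (n = 3). The ratio of Hoxa9 to Hoxa7 is 1.86 to 2.15 in naive mice and 1.32 to 1.54 in the immunized groups, while the ratio of Hoxa9 to Hoxa6 overlaps among all 3 groups.

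In the RefSeq annotation of GRCm38.p6 the order on the minus strand of chromosome 6 is Hoxa6, the noncoding gene Mira, Hoxa7, Hoxa9 and Hoxa10. The 250 bases before the RefSeq start of the 3 genes are shown because Hoxa9 and Hoxa6 were lower in EAE mice while Hoxa7 between them gave no such difference. The cells may use other starts than these, and the data do not say which was used. Each is printed 5′ to 3′ along the gene, as Hoxa9 at chr6:52227371-52227620, Hoxa7 at chr6:52218574-52218823 and Hoxa6 at chr6:52208673-52208922, all on the minus strand. Capitals mark matches, on either strand, to one of 6 motifs. The GC box, bound by SP and KLF factors, was searched as GGGCGG. The box bound by the factor NF-Y was searched as CCAAT. The core site of CDX factors, which act upstream of Hox clusters, was searched as TTTATG. The joint site of a PBX and a HOX protein was searched with the letters TGATTNAT. The core site of MEIS proteins was searched as TGACAG. The half-site of the cAMP response element, which is bound by the factor CREB, was searched as TGACG.
Hoxa9: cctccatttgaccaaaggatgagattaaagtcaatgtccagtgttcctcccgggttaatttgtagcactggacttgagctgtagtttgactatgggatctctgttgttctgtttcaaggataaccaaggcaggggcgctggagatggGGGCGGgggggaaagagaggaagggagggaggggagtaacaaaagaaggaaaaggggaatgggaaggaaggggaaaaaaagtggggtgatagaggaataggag
Hoxa7: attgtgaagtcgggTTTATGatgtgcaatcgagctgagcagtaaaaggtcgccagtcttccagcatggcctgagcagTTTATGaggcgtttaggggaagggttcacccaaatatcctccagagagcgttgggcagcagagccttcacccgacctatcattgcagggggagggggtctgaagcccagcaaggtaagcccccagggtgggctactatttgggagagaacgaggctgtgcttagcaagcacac
Hoxa6: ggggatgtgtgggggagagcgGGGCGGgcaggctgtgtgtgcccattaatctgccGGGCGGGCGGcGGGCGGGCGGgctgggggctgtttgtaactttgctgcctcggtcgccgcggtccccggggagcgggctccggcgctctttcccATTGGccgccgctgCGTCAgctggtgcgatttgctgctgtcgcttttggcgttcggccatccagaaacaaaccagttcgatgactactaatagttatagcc

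The 3 windows had little in common in these letters. The Hoxa9 window held 1 GC box and 3 CG pairs. The Hoxa7 window held 2 CDX cores and 7 CG pairs. The Hoxa6 window held 5 GC boxes, some of them overlapping, 1 CCAAT box and 24 CG pairs. It also held 1 half-site of the cAMP response element, which shares no base with the other matches. Of 32851 RefSeq promoters of this length, 32.7% held a GC box, 33.8% CCAAT and 10.8% the CDX core. The PBX-HOX composite was in 2.82%, the MEIS core in 15.9% and the half-site of the cAMP response element in 17.8%. The median number of CG pairs was 6. None of the 3 windows held the PBX-HOX composite or the MEIS core, which says only that these letters are not there. A match is no evidence that a factor binds.

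Mira, a noncoding transcript of the HoxA cluster described beside Hoxa6 and Hoxa7, was also read. It had 645, 579.9 and 673 in naive mice, 561, 555 and 508 in EAE mice and 508, 515 and 509 in treated EAE mice. The naive mice lay above both immunized groups, but no difference passed the test. It was -0.22 (SE 0.10) in EAE and -0.31 (SE 0.10) in treated EAE, each against naive mice (limma, adjusted p = 0.17 and 0.0633). Within a library Mira to Hoxa7 was 0.506 to 0.522 in naive, 0.430 to 0.444 in EAE and 0.377 to 0.439 in treated EAE mice. This ratio too was chosen after the values had been seen. Over the 9 libraries the log2 values of Mira had a Pearson r of 0.79 with Hoxa9 and 0.18 with Hoxa7. In the RefSeq annotation of GRCm38.p6 neither Mira nor Hoxa7 overlaps another gene, but another annotation may differ. Which annotation and strand setting lie behind these values is not given in the sources used here. How reads were divided between the 2 genes is therefore not known, and both values are uncertain to that extent.

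Hoxa10, the next gene on from Hoxa9 and, like it, of the posterior-type group that acts in progenitors, was close to the lower limit of the table. Its deposited values were 7, 13 and 5 in naive, 5, 6 and 5 in EAE and 6, 10 and 11 in treated EAE mice. It therefore passed the filter in exactly 3 libraries and was the gene just inside it, while no listed gene with a row lay outside. The log2 difference was -0.45 (SE 0.53) in EAE against naive and 0.71 (SE 0.53) in treated against untreated EAE mice, with an interval of the first from -1.62 to 0.72 (limma, adjusted p = 0.61 and 0.998). A fold change as large as that of Hoxa9 was not detectable for this gene.

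Of the HoxB genes, none passed the test in any comparison. Hoxb4, which expands stem cells when it is forced on, had 94.6, 98.8 and 110.1 in naive mice, 123, 103 and 106 in EAE mice and 108, 119 and 113 in treated EAE mice. The groups overlapped. Its log2 difference was 0.12 (SE 0.17) in EAE and 0.16 (SE 0.17) in treated EAE, each against naive mice (limma, adjusted p = 0.662 and 0.53), and the interval of the first ran from -0.24 to 0.49. That interval does not reach the Hoxa9 change of -0.51, although the difference between the 2 genes was not itself tested.

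Hoxb3, whose RefSeq span encloses Hoxb4, had 67.5, 62.1 and 68.1 in naive mice, 57.4, 56.9 and 50.7 in EAE mice and 62.6, 52.6 and 46.3 in treated EAE mice. Every EAE mouse lay below every naive mouse, as was so for 18.4% of all tested genes, and 1 treated mouse reached the naive range. The difference was -0.26 (SE 0.21) in EAE and -0.30 (SE 0.21) in treated EAE, each against naive mice (limma, adjusted p = 0.459 and 0.371). With an SE of this size, a fall as large as that of Hoxa9 is not excluded for Hoxb3. Since Hoxb3 and Hoxb4 overlap on chromosome 11, reads of one may have been given to the other. The span of Hoxb3 also overlaps Mir10a and the noncoding gene Hoxb3os, neither of which has a row, and the strand setting is not known.

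Hoxb2 and Hoxb6 were low in the table as well, with every value under 30. Hoxb2 had 21.1, 17.9 and 24.3 in naive mice, 20.6, 21.3 and 11.4 in EAE mice and 28.3, 19.2 and 13.2 in treated EAE mice. Hoxb6 had 12.1, 16.0 and 10.3 in naive mice, 8.07, 11.2 and 6.21 in EAE mice and 12.1, 12.1 and 11.0 in treated EAE mice. For both genes the groups overlapped. The log2 difference in EAE against naive mice was -0.27 (SE 0.40) for Hoxb2 and -0.56 (SE 0.43) for Hoxb6 (limma, adjusted p = 0.687 and 0.424). The point estimate for Hoxb6 was thus as low as that of Hoxa9, with an interval from -1.49 to 0.38. Each of the 2 has an antisense noncoding gene over part of its RefSeq span, and the strand setting is not known.

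**Figure D3:**
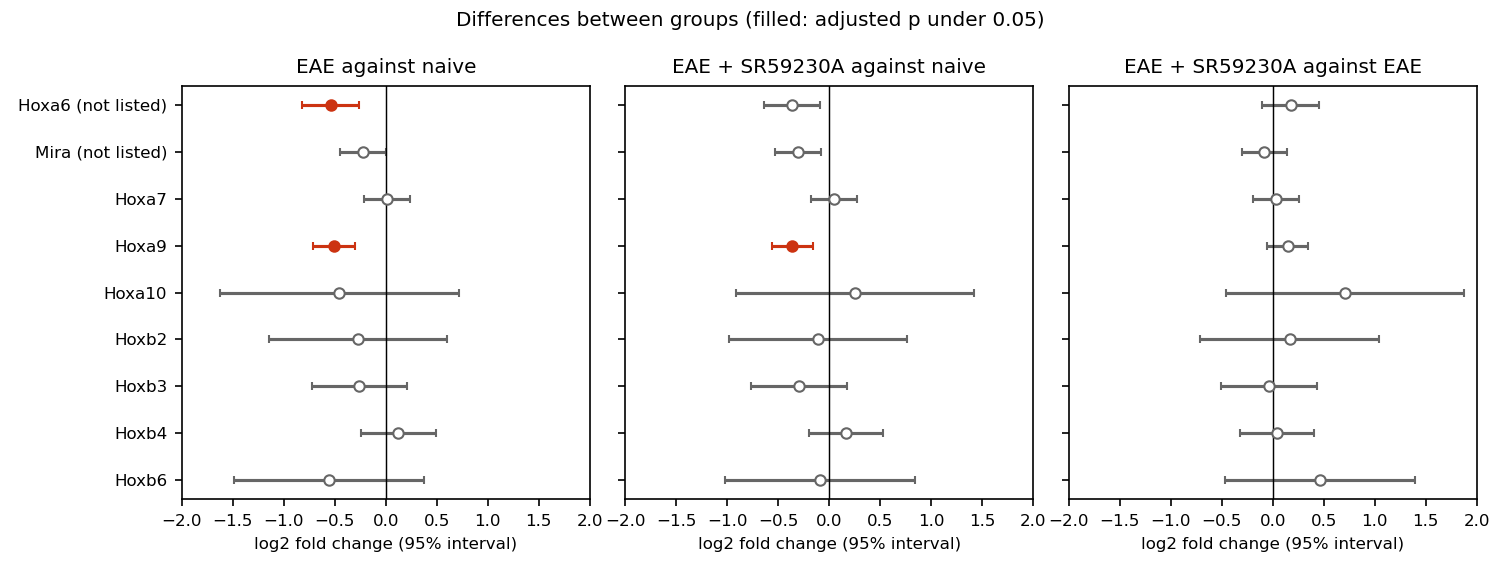
Log2 fold change (horizontal axes) with its 95% interval from limma-trend, for the 7 listed genes with a row and for Hoxa6 and Mira, which are not on the list, in the 3 comparisons. Filled points passed at an adjusted p under 0.05, which were Hoxa9 in both comparisons with naive mice and Hoxa6 in EAE against naive mice.

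Counted over the 7 tested genes of the list, 1 fell and 0 rose in EAE against naive mice, where 5.1% of all tested genes fell and 9.13% rose. Groups did not overlap for 2 of the 7, Hoxa9 and Hoxb3, both lower, against 18.4% of all tested genes lower and 21% higher. In treated EAE against naive mice 1 fell and 0 rose, beside 4.61% and 10.2% of all tested genes, and 1 was lower without overlap, beside 22.4% of all genes, and none higher, beside 26.4%. In treated against untreated EAE mice 0 of the 7 changed (limma, 0 at an unadjusted p under 0.05), and 0 of the 7 stood apart, beside 8.46% of all genes higher and 7.71% lower. There, 0.00768% of all tested genes rose and 0% fell, so that the comparison called 1 gene in all (limma, 504 at an unadjusted p under 0.05). With 7 genes, 1 call is near these shares. The median log2 difference of the 7 was -0.27 in EAE against naive mice, 0.15 in treated against untreated EAE and -0.09 in treated EAE against naive mice, where the medians of all tested genes were -0.0032, 0.010 and 0.0071. The 3 comparisons share samples, so their values are not independent.

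Correlations between pairs of the listed genes had both signs. Over the 9 libraries the 21 pairs among the 7 genes had Pearson r from -0.44 to 0.76 with a median of 0.027, and 11 of the 21 were positive. Hoxb2 with Hoxb3 had the highest r, and Hoxb3 with Hoxb4 the lowest. Several of these genes have values near 10, where rounding alone moves the log2 value, so weak correlations are not results. Such correlations cannot decide whether the genes vary as one block. Among 8681 genes outside the Hox clusters with a mean of at least 100, the pattern most like the mean standardised log2 value of the 7 genes was that of Taok3 (r = 0.98, n = 9 libraries), a kinase of the stress pathways, followed by Stard10 (0.98), 2310022B05Rik (0.97), Dynll2 (0.97), Lyl1 (0.97), Galnt12 (0.96), Fkbp8 (0.96) and Snx25 (0.95). Lyl1 encodes a stem-cell transcription factor related to TAL1. For Hoxa9 alone, a choice made after its values had been seen, the highest were Pfkfb4 (0.99), Nedd9 (0.99), Zfand3 (0.99), Epg5 (0.98) and Dok2 (0.98).

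The partners of Hox proteins showed no called change. Of 12 listed TALE genes 8 were tested, and Meis1 had no row and was not analysed here. In EAE and in treated EAE mice, each against naive mice, 0 of the 8 rose or fell. Of all tested genes 9.13% rose and 5.1% fell in EAE, and 10.2% and 4.61% in treated EAE mice. With 8 genes, 0 calls is near these shares. In each comparison 1 of 8 had an unadjusted p under 0.05 (limma), as had 3753 and 4055 of the 13018 tested genes. Meis3 differed by -0.82 (SE 0.35) in EAE against naive mice and did not pass (limma, adjusted p = 0.144). No gene of the HoxC or HoxD clusters and no Cdx gene, which encode upstream activators of Hox clusters, was tested.

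Among the proteins that keep Hox clusters open, 2 of 29 tested MLL and trithorax genes rose and 1 fell in EAE against naive mice, with a median of -0.049. Over all tested genes 9.13% rose and 5.1% fell, so these counts are near or below that background. Kmt2a, which encodes MLL1, had 3817, 4020.5 and 3917 in naive mice, 3498, 3346 and 3439 in EAE mice and 3326, 3813 and 3896 in treated EAE mice. The EAE mice all lay below the naive ones, but the difference of -0.19 (SE 0.09) did not pass (limma, adjusted p = 0.2). Men1, which encodes the MLL partner menin, differed by 0.09 (SE 0.10, limma, adjusted p = 0.577). Dpy30, a shared subunit of the MLL-type methyltransferases, rose by 0.45 (SE 0.11), and Brpf1, a scaffold of the MOZ acetyltransferase, rose by 0.37 (SE 0.10, limma, adjusted p = 0.0212 and 0.0369). Mllt6, a fusion partner of MLL in leukemia, fell by 0.51 (SE 0.12, limma, adjusted p = 0.0156). The call of Dpy30 was kept under 12 of 18 settings and lost without the naive mouse 1 or 2 or the EAE mouse 1 or 2 (limma, adjusted p from 0.0531 to 0.294). That of Brpf1 was kept under 9 and lost without the naive mouse 1 or 3 or any EAE mouse (0.0707 to 0.342). That of Mllt6 was kept under 14 and lost without the naive mouse 1 or 2 or the EAE mouse 1 (0.0533 to 0.112). Against naive mice, 2 of the 29 rose and 0 fell in treated EAE mice, beside 10.2% and 4.61% of all tested genes. Leaving out single mice gave 0 to 2 that rose.

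Of the Polycomb genes, which encode the proteins that silence Hox clusters, 1 of 32 tested rose and 2 fell in EAE against naive mice, with a median of -0.040, and these counts too are near or below the 9.13% and 5.1% of all tested genes. Ezh2, the methyltransferase of the complex PRC2, differed by 0.19 (SE 0.11, limma, adjusted p = 0.273) and Bmi1, a PRC1 subunit needed for stem-cell self-renewal, by -0.24 (SE 0.11, limma, adjusted p = 0.181). Phf1, an accessory subunit of PRC2, fell from 287 ± 29.6 in naive to 177 ± 15.4 in EAE mice (SD, n = 3; log2 change -0.70, SE 0.15, limma, adjusted p = 0.0115). Cbx7, the PRC1 subunit that reads the PRC2 mark in stem cells, fell from 567 ± 42.4 to 410 ± 24.6 (SD, n = 3; log2 change -0.47, SE 0.11, limma, adjusted p = 0.015). Asxl2, a subunit of the enzyme that removes the PRC1 mark, rose by 0.30 (SE 0.08, limma, adjusted p = 0.039), a call kept under 5 of 18 settings and lost without any one of the 9 mice (limma, adjusted p from 0.0593 to 0.2). The Phf1 call was lost without the EAE mouse 2 (limma, adjusted p = 0.0552), and that of Cbx7 without the naive mouse 1, the naive mouse 2 or the EAE mouse 1 (limma, adjusted p = 0.188, 0.0518 and 0.0622), and both in limma without a trend. Against naive mice, 1 of the 32 rose and 1 fell in treated EAE mice, beside 10.2% and 4.61% of all tested genes. Leaving out single mice gave 0 to 2 that rose and 0 to 1 that fell.

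Genes known as targets or companions of the HoxA9 and Meis1 program in blood cells were also counted. Of 21 tested, 2 rose and 9 fell in EAE against naive mice, where 9.13% of all tested genes rose and 5.1% fell, and the median was -0.35 beside -0.0032 for all tested genes. Without the naive mouse 1 the number that fell was 3. The summed scaled value of the 21 genes, which follows those with the highest values, went the other way. It was 88035 to 91575 in naive, 92791 to 97028 in EAE and 94109 to 100624 in treated EAE mice. Angpt1, a growth factor that stem cells make, had 3171, 3038 and 2207 in naive mice and 889, 1162 and 1032 in EAE mice, and fell by 1.45 (SE 0.18, limma, adjusted p = 0.000458). Mecom, a stem-cell transcription factor, fell by 0.87 (SE 0.14), and Trib2, a pseudokinase able to drive myeloid leukemia, by 1.01 (SE 0.27, limma, adjusted p = 0.00292 and 0.0278). Without the naive mouse 1 neither passed (limma, adjusted p = 0.0817 and 0.297), and Trib2 was also lost without the naive mouse 2 or the EAE mouse 1 or 2 (0.0551 to 0.117). In limma without a trend Trib2 was lost as well (adjusted p = 0.0564). Pim1, a survival kinase induced by cytokines, rose from 8789 ± 282 to 20415 ± 2234 (SD, n = 3) or by 1.22 (SE 0.12, limma, adjusted p = 0.000106). Cdk6, a G1 kinase, rose as well. Where SR59230A was given, 3 of the 21 rose and 6 fell against naive mice, beside 10.2% and 4.61% of all tested genes. Without the treated mouse 2 the number that fell was 0 and without the naive mouse 1 it was 3, and 1 rose without either of these or without the treated mouse 3. The list shares Mecom and Cd34 with the stem-cell markers below and Kit with the gate, so its counts are not separate from theirs.

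**Figure D4:**
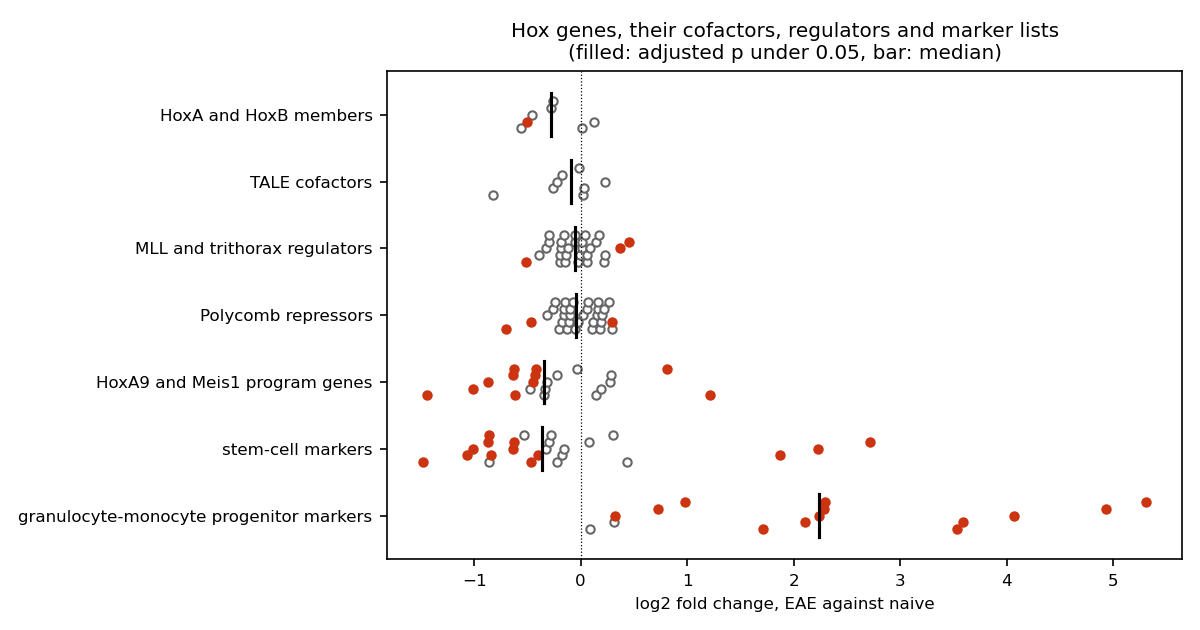
Log2 fold change in EAE against naive mice (horizontal axis) of the tested genes of 7 lists, with filled points for an adjusted p under 0.05 and a bar at each list's median. The medians are -0.27 for the listed Hox genes, -0.093, -0.049 and -0.040 for their cofactors and regulators, -0.35 for the HoxA9 and Meis1 program, -0.36 for stem-cell markers and 2.23 for granulocyte-monocyte progenitor markers.

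Genes that flank the clusters were tested as neighbours that are not Hox genes. Of 6 beside HoxA, 1 rose and 0 fell in EAE against naive mice, with a median of -0.22. Of all tested genes 9.13% rose and 5.1% fell, and with so few genes 1 call is near these shares. The gene that rose was Skap2, an adaptor of immune cell signalling that lies outside the cluster. Skap2 had 3162, 3055 and 2974 in naive mice and 4109, 4511 and 5260.5 in EAE mice, and rose by 0.59 (SE 0.11, limma, adjusted p = 0.00478). Its call was lost in limma without a trend (adjusted p = 0.0516). Skap2 thus moved the other way from Hoxa9 and Hoxa6. Of 7 beside HoxB, Snf8, a subunit of the endosomal ESCRT machinery, rose by 0.37 (SE 0.11, limma, adjusted p = 0.0444, kept under 5 of 18 settings and lost without any one of the 9 mice), and 0 fell. Beside HoxA, 1 of the 6 fell without the EAE mouse 1.

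Marker RNA of progenitors and stem cells differed between the same groups as Hoxa9. The counts below stand beside 9.13% of all tested genes that rose and 5.1% that fell in EAE against naive mice. Of 15 granulocyte-monocyte progenitor markers 13 rose in EAE against naive mice, 0 fell and none was at 0 in any library. Their summed scaled value was 11953 to 13843 in naive, 30473 to 40639 in EAE and 32197 to 33528 in treated EAE mice. Mpo, the granule peroxidase of these progenitors, rose from 211 ± 37.5 to 928 ± 288 (SD, n = 3; log2 change 2.11, SE 0.22, limma, adjusted p = 0.000151), and Ms4a3, Elane, Igsf6 and F13a1 rose by 5.30, 4.93, 4.07 and 3.59. Of 24 stem-cell markers 10 fell and 3 rose, and 4 fell without the naive mouse 1. Their summed value was 21863 to 25641 in naive, 17291 to 19025 in EAE and 18461 to 20489 in treated EAE mice. Hlf, a transcription factor of stem cells, fell by 1.48 (SE 0.10, limma, adjusted p = 3.76e-06), from 3389, 2989 and 3302 in naive to 1269, 1167 and 1063 in EAE mice. The 3 that rose were the imprinted noncoding genes Meg3 and Rian (2.23 and 2.72) and Clca3a1 (1.87), the last lost without the naive mouse 1 or the EAE mouse 1 (limma, adjusted p = 0.245 and 0.0796). In limma without a trend Clca3a1 was lost as well (adjusted p = 0.0512). Within a library Hoxa9 to Hlf was 0.699 to 0.803 in naive, 1.42 to 1.51 in EAE and 1.36 to 1.68 in treated EAE mice, so that Hoxa9 was higher relative to Hlf after immunization. Of the gate genes Kit fell by 0.43 (SE 0.09) and Ly6a rose by 0.46 (SE 0.12, limma, adjusted p = 0.0115 and 0.0226), and both calls were lost without the naive mouse 1 (limma, adjusted p = 0.19 and 0.261). Kit was also lost without the EAE mouse 1 (0.0519), and Ly6a was also lost without the naive mouse 3 or the EAE mouse 1 or 3 (0.0544 to 0.0943). In limma without a trend both were lost (adjusted p = 0.0565 for Kit and 0.112 for Ly6a). Ly6a was lost as well without scaling (0.0758) and with only the 6 libraries compared (0.0537), and was kept under 11 of 18 settings. The part of these markers' cell types in the Hoxa9 and Hoxa6 differences was not tested.

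Markers of other lineages are given as counts. In EAE against naive mice 2 of 13 tested mature neutrophil markers rose and 1 fell, 2 of 13 erythroid markers rose and 3 fell, 0 of 14 lymphoid markers rose and 8 fell, and 1 of 9 stromal and endothelial markers rose and 3 fell. Of all tested genes 9.13% rose and 5.1% fell in that comparison. Single mice moved the marker counts. The lymphoid markers that fell numbered 2 without the naive mouse 1, 4 without the naive mouse 3 and 3 without the EAE mouse 2, and in the last case 2 rose. The neutrophil markers that rose numbered 8 without the EAE mouse 2, 5 without the naive mouse 3 and 1 without the naive mouse 1 or the EAE mouse 1. The erythroid markers that rose numbered 0 without the naive mouse 1, and the stromal and endothelial markers that fell ranged from 0 without the naive mouse 1 to 5 without the naive mouse 2.

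In treated against untreated EAE mice all 13 tested erythroid markers had a positive log2 difference, with a median of 0.89, and for 10 the treated mice all lay above the untreated ones, beside 8.46% of all tested genes. Car1, a carbonic anhydrase of red cell precursors, rose by 1.32 (limma, adjusted p = 0.000516) and was the 1 gene called in that comparison, a call lost without the treated mouse 2 and in limma without a trend. All 14 tested lymphoid markers had a positive difference as well, with a median of 0.40, and 6 stood apart, but 0 passed (limma, 5 at an unadjusted p under 0.05). Without library scaling 12 of the 13 and 13 of the 14 were positive. The summed scaled value of the erythroid markers in the table was 9647 to 10523 in naive, 4719 to 5059 in EAE and 5990 to 6455 in treated EAE mice, and that of the lymphoid markers 18308 to 20631, 16567 to 23046 and 23624 to 27958, with none at 0 in any library. A sum follows the genes with the highest values and can go against most of its list. In treated EAE against naive mice 12 of the 13 erythroid markers were positive and 1 negative, though their sum was lower. Of the 14 lymphoid markers 4 were positive and 10 negative there, though their sum was higher. In treated against untreated EAE mice 0 of the neutrophil and 0 of the stromal and endothelial markers passed (limma, 1 and 0 at an unadjusted p under 0.05).

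In treated EAE against naive mice 3 of the 13 erythroid markers rose and 1 fell, with a median of 0.54, and 2 of the 14 lymphoid markers rose and 2 fell, with a median of -0.57. The neutrophil markers gave 4 that rose and 1 that fell, and the stromal and endothelial markers 1 and 2. Of all tested genes 10.2% rose and 4.61% fell in that comparison. Over left-out mice the numbers that rose ranged from 0 to 4 for the erythroid markers, with 0 without the treated mouse 2 and 1 without the naive mouse 1, from 0 to 3 for the lymphoid markers, with 0 without any one treated mouse or the naive mouse 1 or 2, and from 0 to 10 for the neutrophil markers, the last with 10 without the naive mouse 3 and 0 without the treated mouse 2 or 3. The numbers that fell ranged from 0 to 3 for the lymphoid and for the stromal and endothelial markers and from 0 to 1 for the neutrophil markers, and stayed at 1 for the erythroid markers. The part of the other lineages in the Hox values was not tested.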

How the data were processed

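RNA was measured in LSK cells sorted from 9 mice, 3 per group, and prepared with the RNeasy micro kit, per the labels' protocols. The authors deposited 1 table of whole numbers, a score for each of 14940 gene symbols in 9 libraries. Which aligner, counting tool, genome build and annotation were used is not given in the sources used here. The submitters' processing notes name DESeq2, with no version or role. The score is not a read count: in 4577 well-expressed genes (mean 500 or more) the principal components of ln(value + 1) numbered 7 and 8 carried 6.70e-05% and 5.94e-05% of all variance, so 2 directions across libraries are missing, and they lay within groups (99.4% and 99.7%). The spread between mice, and with it every p-value, may be understated for that reason. Depth is unknown.

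Library scaling used median-of-ratios factors, 13018 genes passed the filter (deposited value 10 or more in 3 libraries), and the analysis used log2(value + 1), which understates the changes of low genes. Differences were tested, two-sided, with limma-trend (limma 3.58.1, R 4.3.3) in 1 fit of all 9 libraries, with group and the 2 missing directions as terms (4 residual degrees of freedom, prior 7.52), and Benjamini-Hochberg adjustment over all tested genes. Samples were grouped by their treatment labels, which describe separate mice. Replicate numbers are names given in order of deposition, with no pairing. An exact permutation test of 3 against 3 mice cannot go below p = 0.1 and was not used. The script was tested on simulated data. A few genes of the lists are counted but not reported by name here.

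The members, the gene lists and the tests were chosen with earlier results of these data known. Named are every member, up to 4 called genes of largest change per list in EAE against naive mice, a few fixed cofactors, regulators and reference genes, and the genes most like the members. Hoxa6 and Mira fall under the lists of all HoxA genes and of noncoding transcripts of the clusters. Meis3 and the Hoxa9 likeness were picked after their values were seen. The 18 alternatives changed scaling, filter, pseudocount, covariates, libraries in the fit and the variance prior, or left out 1 library. Promoter sequences are from RefSeq (GRCm38.p6), where 6 of the 10 members had one, and motifs were sought in the 250 bases before the start.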

Additional observations from a re-analysis of the deposited data

How the results depend on the processing

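Depth and counting error are unknown, groups have 3 mice, and low genes such as Hoxa10, Hoxb2 and Hoxb6 have intervals too wide for changes of the size seen in Hoxa9. No paired analysis was possible because the replicate numbers only follow the order of deposition.

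All genes called in EAE against naive mice (1189 higher, 664 lower) were 606 higher without scaling, 2062 and 1423 without the directions as covariates and 442 and 336 in limma without a trend, and ranged over left-out mice from 304 to 1202 higher and from 126 to 598 lower, with the fewest without the naive mouse 1. In treated EAE against naive mice (1332 higher, 600 lower) they were 489 higher without scaling, 835 higher and 954 lower with upper-quartile scaling, 2303 and 1617 without the directions and 511 and 353 without a trend, and ranged over left-out mice from 121 to 1552 higher and from 27 to 687 lower, with the fewest without the treated mouse 2. The share of calls that were higher moved from 64.2% to 47.0% with upper-quartile scaling in EAE against naive mice. For treated EAE against naive mice it moved from 68.9% to 46.7%, and to 45.6% without scaling, which shifted the median of all genes by -0.12 on the log2 scale. In treated against untreated EAE mice the 1 gene called higher became 2 with only the 6 libraries compared and 0 without a trend, and over left-out mice 0 to 1. The 1 listed gene called lower in treated EAE against naive mice, Hoxa9, was not called (0) without a trend, and over left-out mice the count was 0 to 1. The causes were not tested.

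Differences of Hox genes that changed sign had not passed the test. Without scaling Hoxa7 was -0.0167 in EAE against naive, -0.057 in treated against untreated EAE and -0.0737 in treated EAE against naive mice, and Hoxb4 was -0.0442 in treated against untreated EAE mice. With upper-quartile scaling Hoxa7 was -0.0603 in EAE and -0.0499 in treated EAE, each against naive mice. Over left-out mice the differences in EAE against naive mice ranged from -0.0511 to 0.111 for Hoxa7, from -0.0072 to 0.22 for Hoxb4 and from -0.468 to 0.0372 for Hoxb2. In treated against untreated EAE mice they ranged from -0.0648 to 0.0967 for Hoxa7, from -0.0438 to 0.209 for Hoxa9, from -0.137 to 0.534 for Hoxb2, from -0.161 to 0.106 for Hoxb3 and from -0.225 to 0.176 for Hoxb4. In treated EAE against naive mice they ranged from -0.0413 to 0.142 for Hoxa7, from -0.161 to 0.525 for Hoxa10, from -0.408 to 0.283 for Hoxb2, from -0.0769 to 0.264 for Hoxb4 and from -0.292 to 0.078 for Hoxb6.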

Other observations

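Of the Hox genes outside the list, Hoxb8 and Hoxa4 lay under the filter and were not tested. Hoxb8, a gene that blocks the maturation of myeloid cells when it is forced on, had deposited values of 5, 4 and 12 in naive, 10, 6 and 3 in EAE and 0, 2 and 3 in treated EAE mice. The treated mice were the lowest group, but the values are too low for a fold change to be read. Hoxa4 had 5, 3 and 10 in naive, 8, 1 and 6 in EAE and 9, 7 and 4 in treated EAE mice, and the groups overlapped. The noncoding transcript Hotairm1 of the HoxA cluster had 2, 2 and 5 in naive, 7, 3 and 3 in EAE and 2, 3 and 2 in treated EAE mice.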
